A study of Mus musculus with 12 samples.

Results

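Some RNAs that were catalogued as microRNAs have since been traced to transfer RNA (tRNA), ribosomal RNA or small nucleolar RNA (snoRNA). 6 such assays were described in mouse lung. They were the rows of the normalised table named miR-1937B, miR-1937C, miR-720, miR-712, miR-1839-5P and miR-1839-3P. They were taken by name, from assays beginning miR-1937, miR-720, miR-712 or miR-1839, and 1 further name that ended in # was left out, so 6 of 762 assays were members. The families were picked because of how they had differed between the diets in these same mice. Their differences between diets are therefore given as a description, with no test, and the members are tested for radiation only. Diet tests are given only for control RNAs and cell type markers, which are no members.

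The lungs came from 12 C57BL/6 mice in 4 groups of 3. The groups were mice fed a diet with 10% flaxseed and given 13.5 Gy of radiation (mice 15, 17 and 18), mice fed flaxseed without radiation (mice 11, 12 and 13), mice fed the control diet and irradiated (mice 7, 8 and 9), and mice fed the control diet without radiation (mice 2, 4 and 5). The flaxseed diet lasted 21 days and the irradiated mice were killed 48 hours after exposure. Whole lung tissue was used, so fewer cells of a type and less RNA per cell cannot be told apart.

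MicroRNAs are cut by the enzyme Dicer from short hairpins and guide Argonaute proteins to messenger RNAs through their seed, the bases near the 5′ end. tRNAs, the adaptors of protein synthesis, are transcribed by RNA polymerase III and are cleaved into stable fragments, in stressed cells by the nuclease angiogenin. miR-720 and the miR-1937 family match such tRNA sequence. miR-712 comes from a spacer of the ribosomal RNA precursor that is removed when the ribosomal RNAs are released, and in mouse endothelium it has been described as a repressor of the metalloproteinase inhibitor Timp3. miR-1839 lies in a small nucleolar RNA of the H/ACA class, a group that guides pseudouridine formation, and its hairpin is short enough to be cut by Dicer.

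The miR-1839 hairpin is shown because both of its arms were measured and they differed in behaviour. RefSeq places it on mouse GRCm38.p6 at chr7:81529916-81529988, plus strand, inside the long non-coding RNA gene 2900076A07Rik. The first line marks the mature 5p arm in capitals. The second line marks the stretch opposite it, bases 41 to 59, with which 17 of the 22 bases of the 5p arm paired in a fold predicted by RNAfold at -22 kcal/mol. The third line is the mature 5p arm with its seed, bases 2 to 8, in capitals.
Mir1839 hairpin, 5p arm: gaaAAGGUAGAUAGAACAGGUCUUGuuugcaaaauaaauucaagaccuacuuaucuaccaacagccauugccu
Mir1839 hairpin, opposite stretch: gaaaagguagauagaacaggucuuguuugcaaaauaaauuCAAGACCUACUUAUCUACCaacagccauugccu
miR-1839-5p: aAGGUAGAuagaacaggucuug
Of the 1679 mature mouse microRNAs in the RefSeq table, 0 others shared this seed. The mature 3p sequence and the sequences of miR-1937B, miR-1937C, miR-720 and miR-712 were not used here, so 1 of the 6 members was matched to a sequence.

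Each assay was a quantitative PCR reaction read as a relative threshold cycle (Crt), which falls by 1 when the template doubles. A level here is the mean Crt of the 260 microRNA assays detected in all 12 mice minus the Crt of the assay, so it is on a log2 scale, rises with the amount of RNA, and is relative to the average microRNA of that mouse. Levels of different assays also depend on how well each assay primes and amplifies, so the order of assays is an order of readings, not of molecules. Between 281 and 312 assays were detected per mouse and the mean Crt ran from 19.4 to 21.2. The low counts were all in unirradiated flaxseed mice, at 281 to 297, against 307 to 312 in the other groups. Mice 13 and 11 of that group also had the latest mean Crt (21.2 and 20.4). Whether this bears on the comparisons that use that group was not tested. Mouse 11, an unirradiated flaxseed mouse, stood apart in the balance of the 2 primer pools, with pool B reading 1.78 cycles later than pool A, against 2.37 to 2.81 cycles in the other 11 mice. All 6 members were pool B assays. The endothelial miR-126 (levels 8.52 to 9.87) and the smooth muscle miR-145 (6.92 to 8.00) were high in all 12 mice. The erythroid miR-451 was detected in all 12 mice as well, at levels of -2.61 to 1.13. No Crt was matched to the hepatocyte miR-122 or the erythroid miR-486. As 4 assays with a Crt were left without a name, this does not show that either RNA was absent.

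The tRNA-derived assays were among the highest readings of the panel. Of the 296 microRNA assays that were tested, miR-1937B ranked 11 by its mean level, miR-1937C ranked 13 and miR-720 ranked 33. miR-1839-3P (112), miR-712 (138) and miR-1839-5P (148) stood near the middle. The members also differed in how far mice of 1 group spread. The within-group standard deviation (SD) was 0.23 for miR-1839-5P, smaller than all but 17.6% of the tested assays, and 0.36 for miR-1937B, close to the median assay at 0.37. It was 0.48 for miR-720 and 0.51 for miR-1937C, and it was wide for miR-1839-3P (0.72) and miR-712 (0.78), above 83.4% and 85.8% of the tested assays.

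**Figure D1:**
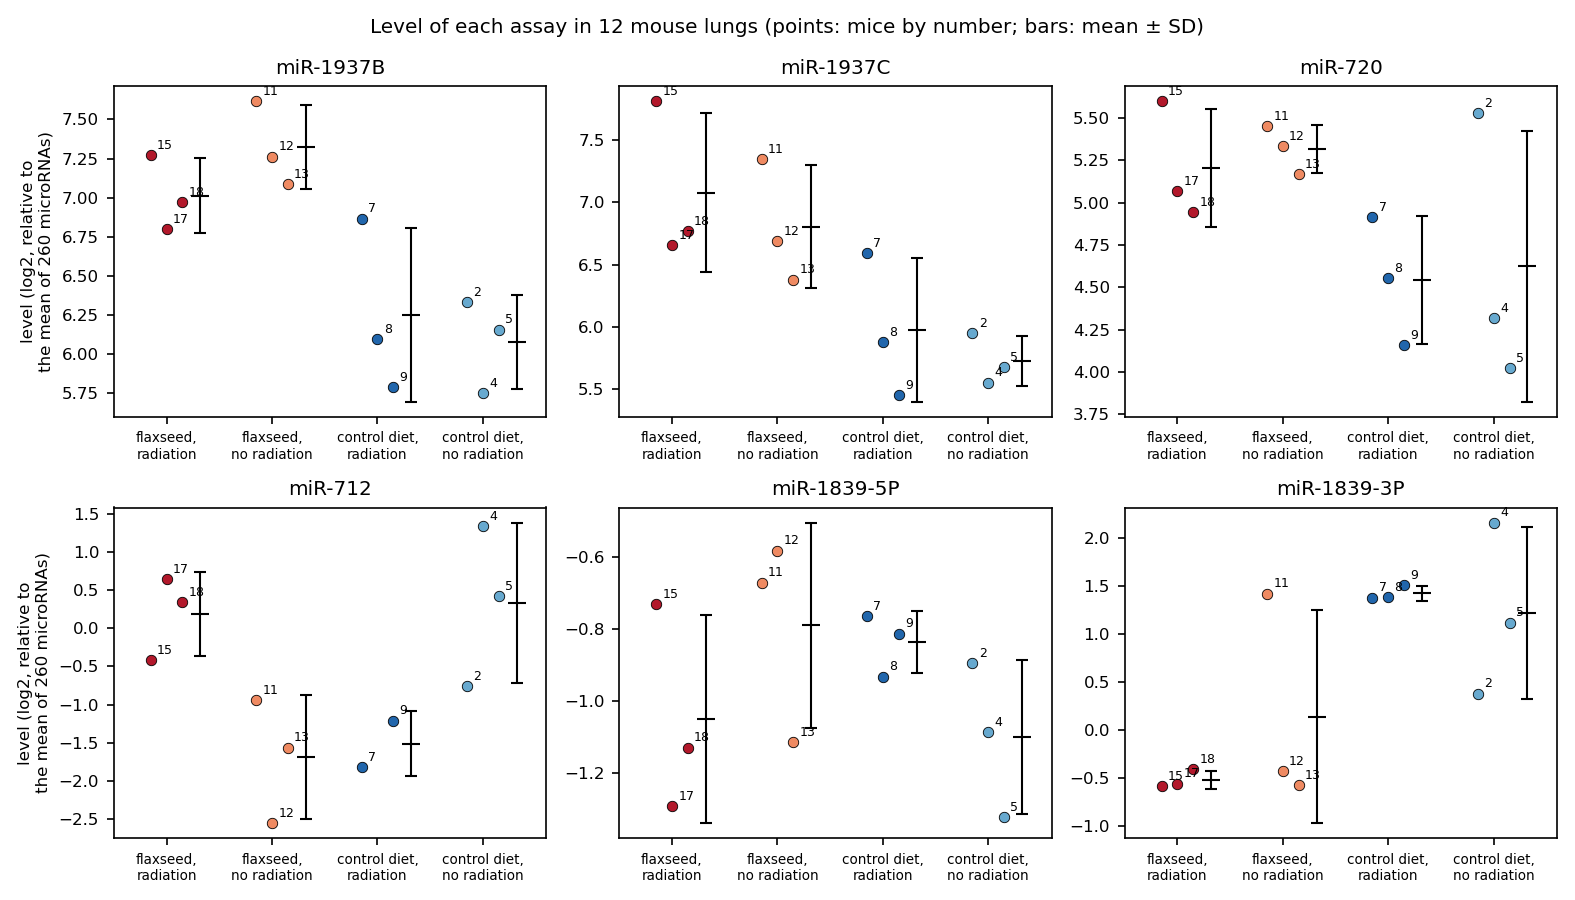
Level of each of the 6 assays (vertical axes, log2, scaled to the average of 260 microRNA assays) by group (horizontal axes, 4 groups). Each point is 1 mouse with its number, and the bar beside each group is the mean ± SD. The flaxseed mice lie mostly above the control mice for miR-1937B, miR-1937C and miR-720 and mostly below them for miR-1839-3P, while miR-712 is high in irradiated flaxseed and unirradiated control mice. miR-712 has 2 points in irradiated control mice because mouse 8 gave no Crt.

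miR-1937B, a tRNA-derived assay, read 7.27, 6.80 and 6.97 in irradiated flaxseed mice and 7.62, 7.26 and 7.09 in unirradiated flaxseed mice, against 6.86, 6.10 and 5.79 in irradiated control mice and 6.33, 5.75 and 6.15 in unirradiated control mice. 5 of the 6 flaxseed mice were above every control mouse, and mouse 17 lay just below the highest control mouse, number 7. The mean level was 7.17 ± 0.28 in flaxseed mice and 6.16 ± 0.41 in control mice (SD, n = 6 each). The difference was 1.00 ± 0.21 (standard error, SE), or 2.01-fold higher on flaxseed. It was 0.76 ± 0.29 in irradiated and 1.24 ± 0.29 in unirradiated mice, and in unirradiated mice the diets did not overlap. In irradiated mice it was 0.08 with quantile normalisation and 0.02 with the authors' normalised values, and in unirradiated mice it was 0.63 with no normalisation.

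miR-1937C, the other member of this family, read 7.81, 6.65 and 6.77 in irradiated flaxseed mice and 7.35, 6.69 and 6.38 in unirradiated flaxseed mice, against 6.59, 5.88 and 5.46 in irradiated control mice and 5.95, 5.56 and 5.68 in unirradiated control mice. Mouse 15 was the highest, mouse 7 was again the highest control mouse, and mouse 13 alone among the flaxseed mice lay below it. The mean was 6.94 ± 0.53 in flaxseed mice and 5.85 ± 0.41 in control mice (SD, n = 6 each), a difference of 1.09 ± 0.27 (SE) or 2.13-fold. The difference was 1.10 ± 0.39 in irradiated mice and 1.08 ± 0.39 in unirradiated mice, and the diets overlapped in neither. In irradiated mice it was 0.68 with quantile normalisation and 0.61 with the authors' normalised values, and in unirradiated mice it was 0.71 scaled to the control RNAs and 0.46 with no normalisation.

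miR-720, which matches another tRNA, read 5.60, 5.07 and 4.95 in irradiated flaxseed mice and 5.45, 5.33 and 5.17 in unirradiated flaxseed mice, against 4.91, 4.55 and 4.16 in irradiated control mice and 5.53, 4.32 and 4.02 in unirradiated control mice. All 6 flaxseed mice lay at 4.95 or above, and 5 of the 6 control mice lay at 4.91 or below. Mouse 2, an unirradiated control mouse, read among the flaxseed mice. The mean was 5.26 ± 0.25 in flaxseed mice and 4.58 ± 0.56 in control mice (SD, n = 6 each), a difference of 0.68 ± 0.26 (SE) or 1.60-fold. The difference was 0.66 ± 0.37 in irradiated and 0.69 ± 0.37 in unirradiated mice. In unirradiated mice it was 1.15 without mouse 2 and 0.39 without mouse 5, and it was 0.40 scaled within primer pools, 0.32 scaled to the control RNAs and 0.08 with no normalisation.

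Across all members, 0 of 6 separated the diets fully when irradiated and unirradiated mice were pooled, where 0.338% of all tested assays did. 4 of 6 did so among irradiated mice, 3 of them higher on flaxseed, where 37.8% of all tested assays did and 15.2% were higher. 3 of 6 did so among unirradiated mice, 2 of them higher, where 28.4% of all tested assays did and 16.9% were higher. The median difference of the 6 assays on flaxseed was 0.36, against 0.05 over all 296 tested assays. Because the members were chosen on the diet contrast, nothing is read from these counts.

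The panel's control RNAs, which are no members, include further non-coding RNAs, each measured in both primer pools. Y1, which binds the Ro protein, and U6, a spliceosomal RNA, are transcribed by RNA polymerase III as tRNAs are. Y1 is given by mouse because it was called on diet, and it was chosen for this after its values were seen. In pool A Y1 read 0.48, 0.68 and 0.49 in irradiated flaxseed mice and 0.37, 1.11 and 0.66 in unirradiated flaxseed mice, against -0.47, -0.69 and -1.03 in irradiated control mice and 0.29, -1.61 and -0.66 in unirradiated control mice. All flaxseed mice were above all control mice, with mouse 2 again the nearest control mouse. With the 10 control RNA assays kept in the limma fit (306 assays, 10.8% of them called on diet at an adjusted p under 0.05), Y1 in pool A was higher on flaxseed by 1.33 ± 0.29 (SE), 2.51-fold, with an adjusted p of 0.0226. By limma the adjusted p was 0.107 with no normalisation and between 0.0519 and 0.0735 without mouse 8, 9, 12, 15 or 18, so the call was lost there, and the direction was kept in all 17 alternatives. In pool B, Y1 was 0.85 ± 0.25 higher by the same limma fit and did not pass (adjusted p = 0.0520). It passed by limma when scaled to the median assay (adjusted p = 0.0343), without mouse 2 (0.0178) and without mouse 13 (0.0466). Y1 in pool A was the 1 of 10 control RNA assays called on diet. U6 differed by -0.04 ± 0.13 in pool A and 0.20 ± 0.20 in pool B (SE) and did not pass the limma test (adjusted p = 0.872 and 0.606). The nucleolar RNA U87 differed by -0.55 ± 0.17 in pool A and -0.28 ± 0.28 in pool B and did not pass either (limma adjusted p = 0.0619 and 0.600). By limma, pool A passed when scaled to the control RNAs (0.0307), without mouse 2 (0.0263) and without mouse 11 (0.0397). Scaling to the control RNAs subtracts the mean of all 10 of these assays, with U87 and both Y1 assays among them. A diet difference under that scaling, here and for the members, is therefore not independent of the higher Y1. The nucleolar RNAs snoRNA135 and snoRNA202 lay between 0.05 and 0.35 and did not pass. Some of the U6, snoRNA135 and snoRNA202 differences changed sign with the scaling. The median difference of the 10 was 0.17.

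**Figure D2:**
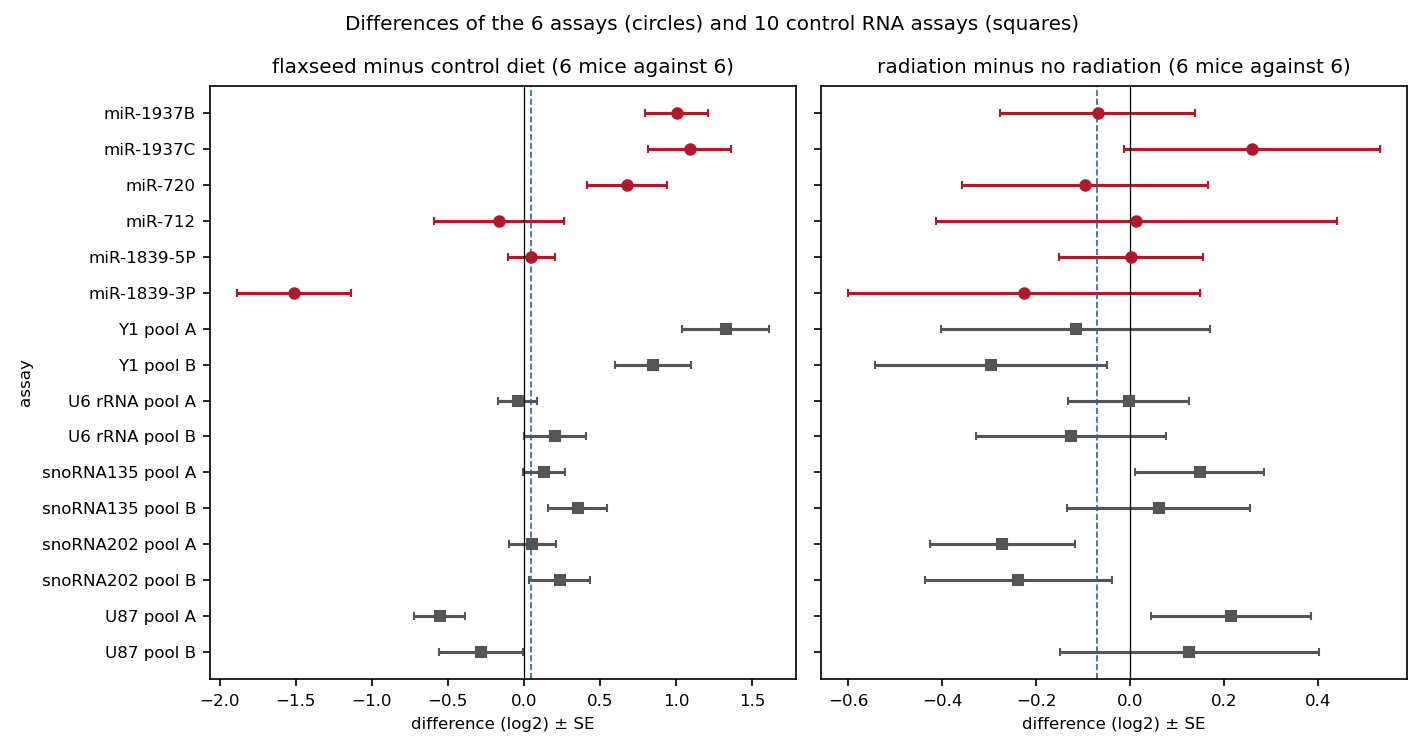
Difference of each assay on the log2 scale (horizontal axes, ± SE, 6 mice against 6) for flaxseed minus control diet (left) and radiation minus no radiation (right). Circles are the 6 assays, squares are the 10 control RNA assays by primer pool, and the dashed line is the median of all tested microRNA assays. On the left miR-1937B, miR-1937C, miR-720 and both Y1 assays lie to the right of the median, and miR-1839-3P and both U87 assays to its left. The remaining assays lie between -0.16 and 0.35. On the right all 6 members lie between -0.23 and 0.26.

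miR-712, from the spacer of the ribosomal RNA precursor, did not follow diet or radiation alone. It read -0.42, 0.64 and 0.34 in irradiated flaxseed mice and -0.94, -2.55 and -1.56 in unirradiated flaxseed mice, against -1.81 and -1.21 in irradiated control mice, of which mouse 8 gave no Crt, and -0.75, 1.34 and 0.42 in unirradiated control mice. Irradiated flaxseed mice all lay above unirradiated flaxseed mice, while irradiated control mice all lay below unirradiated control mice. The means were 0.19 ± 0.54 in irradiated flaxseed mice (SD, n = 3), -1.69 ± 0.81 in unirradiated flaxseed mice (n = 3), -1.51 ± 0.43 in irradiated control mice (n = 2) and 0.33 ± 1.05 in unirradiated control mice (n = 3).

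On flaxseed, irradiated minus unirradiated mice differed by 1.87 ± 0.57 (SE) in miR-712, 3.66-fold, which did not pass the limma test (adjusted p = 0.0536). On the control diet the difference was -1.85 ± 0.64 and did not pass either (limma adjusted p = 0.442, with mouse 8 left out of the fit for this assay). The adjusted p on flaxseed fell below 0.05 when mouse 2, 4 or 11 was left out (0.0330, 0.0344 and 0.0439 by limma) and was 0.173 without mouse 17. The difference of the 2 radiation effects, flaxseed minus control, was 3.72 ± 0.85, and it is given with no test because the diet contrasts within irradiated and unirradiated mice had entered the choice of assays. The same values are a flaxseed difference of 1.70 ± 0.64 in irradiated mice and -2.02 ± 0.57 in unirradiated mice.

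The Crt table itself was divided along the same line. In irradiated flaxseed and unirradiated control mice, 40.0% to 49.7% of the Crt values carried a 4th decimal, and in the other 6 mice 0% did. miR-712 lay between -0.75 and 1.34 in the 6 mice with 4th decimals and between -2.55 and -0.94 in 5 of the 6 without. The sources used here do not say why the decimals differed. Any difference between the 2 kinds of record cannot be told apart from the interaction of diet with radiation, from radiation within either diet, or from diet within irradiated or unirradiated mice, since each of these sets mice of 1 kind against mice of the other. This holds for all members, and also for the 14.5% of all tested assays called on radiation among flaxseed mice. The diet difference and the radiation difference pooled over the other factor hold equal numbers of both kinds.

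The arms of miR-1839 showed different patterns. The 5p arm, whose sequence is given above, read -0.73, -1.29 and -1.13 in irradiated flaxseed mice and -0.67, -0.58 and -1.11 in unirradiated flaxseed mice, against -0.76, -0.93 and -0.81 in irradiated control mice and -0.90, -1.09 and -1.32 in unirradiated control mice. The diets overlapped throughout, and the difference on flaxseed was 0.05 ± 0.15 (SE), at the median of all tested assays. Its sign turned when levels were scaled to the control RNAs (-0.18), but so did the median of all assays (-0.18).

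The 3p arm read -0.59, -0.56 and -0.41 in irradiated flaxseed mice and 1.42, -0.43 and -0.58 in unirradiated flaxseed mice, against 1.38, 1.38 and 1.51 in irradiated control mice and 0.38, 2.16 and 1.12 in unirradiated control mice. 5 of the 6 flaxseed mice lay below every control mouse, and mouse 11 read at the level of the irradiated control mice. The mean was -0.19 ± 0.79 in flaxseed mice and 1.32 ± 0.58 in control mice (SD, n = 6 each), a difference of -1.51 ± 0.38 (SE), or 2.85-fold lower on flaxseed. The difference was -1.94 ± 0.53 in irradiated mice and -1.08 ± 0.53 in unirradiated mice, which became -1.72 without mouse 11, -0.61 without mouse 4 and -1.69 with no normalisation.

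The ratio of the arms within a mouse needs no scaling between mice. The log2 ratio of the 3p over the 5p arm was 0.14, 0.73 and 0.72 in irradiated flaxseed mice and 2.09, 0.15 and 0.54 in unirradiated flaxseed mice, against 2.14, 2.31 and 2.32 in irradiated control mice and 1.27, 3.25 and 2.44 in unirradiated control mice. Except in mouse 11, flaxseed mice lay below all control mice. The mean was 0.73 ± 0.72 in flaxseed mice (SD, n = 6), or 0.46 ± 0.29 without mouse 11, against 2.29 ± 0.63 in control mice (n = 6). Irradiated minus unirradiated mice differed by -0.23, with p = 0.590 in an exact two-sided permutation test within diets, whose smallest possible p is 0.005.

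**Figure D3:**
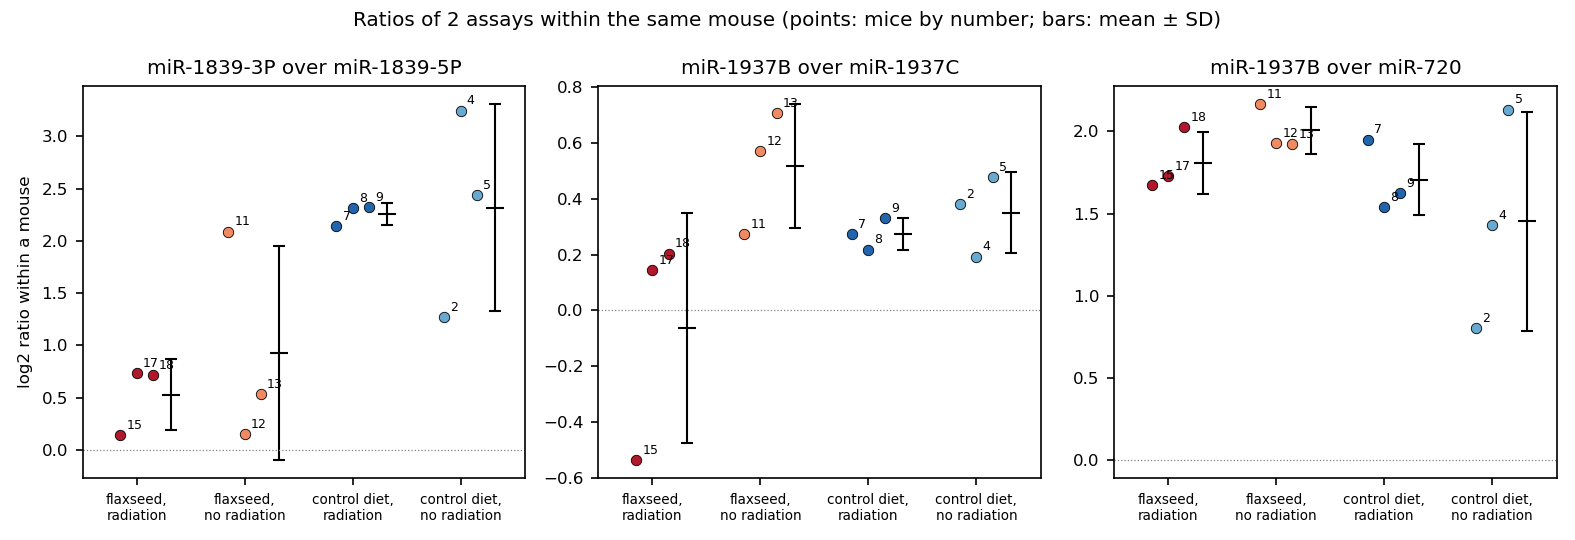
Log2 ratio of 2 assays within the same mouse (vertical axes) in the 4 groups (horizontal axes). Each point is 1 mouse with its number, and bars are mean ± SD (n = 3). The ratio of the arms of miR-1839 is low in every flaxseed mouse but number 11, whereas the ratios among tRNA-derived assays overlap between diets.

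Blood cell markers did not all go the way of miR-1839-3P on flaxseed. By limma, the lymphocyte microRNA miR-150 was called lower (difference -1.33), at 3.38 to 4.63 in flaxseed mice and 4.60 to 5.85 in control mice, and so was the haematopoietic miR-142-3p (-1.77). Both assays of the myeloid miR-223 differed the other way without passing (0.75 and 0.47), and the erythroid miR-451 differed by -0.60 without passing. Among markers of lung and muscle, 1 of the assays of miR-200c (0.69), miR-375 (0.62) and 1 of the assays of miR-1 (0.92) were called higher. The other miR-200c assay differed by -0.15 and the other miR-1 assay by 1.08, and neither passed. The striated muscle miR-133a differed by -0.10 without passing. Nor did miR-126 (-0.10), the assays of miR-143 (0.15 and 0.10) or miR-145 (0.36) pass. Of the 15 marker assays tested, 3 were thus called higher on flaxseed and 2 lower, and 0 were called on radiation. These marker calls came from the fit of the 296 microRNA assays, whose share called on diet is not given here. In the separate fit that kept the control RNAs, 10.8% of 306 assays were called on diet. On radiation with the diets pooled, 0.0% of all 296 assays were called. The part of cell composition in the difference of miR-1839-3P was not tested.

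Radiation was tested on all 6 members, and 0 of 6 passed by limma at an adjusted p under 0.05 with the diets pooled, where 0.0% of all 296 assays did. No member had an unadjusted p under 0.05 in that comparison, against 50 of all assays. The differences, irradiated minus unirradiated, were -0.07 ± 0.21 for miR-1937B, 0.26 ± 0.27 for miR-1937C, -0.10 ± 0.26 for miR-720, 0.01 ± 0.43 for miR-712, 0.00 ± 0.15 for miR-1839-5P and -0.23 ± 0.38 for miR-1839-3P (SE). Their adjusted p values by limma ran from 0.694 to 0.996. The median of the members was -0.03, against -0.07 over all tested assays.

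Among flaxseed mice 0 of 6 passed the limma test for radiation, although 14.5% of all tested assays did, and 1 member (miR-712) had an unadjusted p under 0.05, against 96 of all assays. miR-712 was also the 1 member whose irradiated and unirradiated flaxseed mice did not overlap, where 44.6% of all tested assays did not. For the other 5 members the difference ran from -0.66 ± 0.53 for miR-1839-3P to 0.27 ± 0.39 for miR-1937C (SE), with limma adjusted p values of 0.394 to 0.840. The difference of miR-1839-3P was -0.02 without mouse 11, -0.94 without mouse 12 and -1.01 without mouse 13 of the unirradiated flaxseed mice. The median of the members was -0.19, against -0.25 over all assays.

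Among control mice 0 of 6 passed the limma test, as did 0.0% of all tested assays, and 1 member had an unadjusted p under 0.05, against 30 of all assays. That member was again miR-712, which was the 1 member without overlap, where 13.9% of all tested assays had none. The other 5 differed by -0.08 ± 0.37 for miR-720 to 0.27 ± 0.22 for miR-1839-5P (SE), with limma adjusted p values of 0.830 to 0.982. These tests used a spread for each assay that was pooled within all 4 groups of 3 mice. Limma drew it toward a value common to all assays. A p above the threshold does not show that the levels were equal.

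The tRNA-derived assays differed in how steady their ratios were across mice. The log2 ratio of miR-1937B over miR-1937C was -0.54, 0.14 and 0.20 in irradiated flaxseed mice and 0.27, 0.57 and 0.71 in unirradiated flaxseed mice, against 0.27, 0.22 and 0.33 in irradiated control mice and 0.38, 0.19 and 0.48 in unirradiated control mice. Mouse 15 was the 1 mouse in which miR-1937C read higher than miR-1937B. Irradiated minus unirradiated mice differed by -0.33 with p = 0.0400 in the exact permutation test, or 0.160 after Benjamini-Hochberg adjustment over the 4 ratios compared, which were chosen after the values were seen. The log2 ratio of miR-1937B over miR-720 averaged 1.91 ± 0.18 in flaxseed mice and 1.58 ± 0.46 in control mice (SD, n = 6 each), and ran from 0.80 in mouse 2 to 2.17 in mouse 11. That of miR-1937C over miR-720 averaged 1.68 ± 0.37 in flaxseed mice and 1.27 ± 0.46 in control mice (SD, n = 6 each), and ran from 0.42 in mouse 2 to 2.21 in mouse 15.

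Likeness of pattern was measured as the SD of the log2 ratio of 2 assays over the 12 mice, where a small value means a steady ratio, among the 260 assays detected in all mice. Group means were not removed, so this SD includes the diet differences on which the members were chosen. The ranks are therefore a description and no independent evidence that members are alike or unlike. miR-1937C was the nearest of 259 partners to miR-1937B (SD 0.31, against a median partner at 0.69) and miR-720 the fifth (0.38). From miR-720, miR-1937B ranked 4 and miR-1937C ranked 14 (0.45). The nearest assays outside the members were miR-200b# (0.31), miR-322 (0.37) and miR-34a (0.37) for miR-1937B, and miR-200b# (0.38), miR-338 (0.48) and miR-450B-3P (0.49) for miR-1937C. For miR-720 they were miR-322 (0.21), miR-30c (0.31) and miR-450B-3P (0.32). miR-1839-5P was nearest to miR-7a# (0.18), miR-100 (0.19) and miR-7# (0.20), and miR-1839-3P to miR-2146 (0.41), miR-150 (0.42) and miR-664 (0.57). On flaxseed the last 3 differed by -0.93, -1.33 and -0.67, and the 3 nearest to miR-1937B by 0.60, 0.65 and 0.99. The SD between the arms of miR-1839 was 1.04. This placed the 3p arm at rank 231 of 259 from the 5p arm, whose median partner was at 0.47, but the 5p arm at rank 83 from the 3p arm, whose median partner was at 1.12. miR-712 was not detected in all mice and was not ranked.

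The diet differences were recomputed under 13 other scalings, limits, filters or fits and with each mouse left out. The difference of miR-1937B lay between 0.60 and 1.16, that of miR-1937C between 0.68 and 1.24 and that of miR-720 between 0.40 and 0.90, so all 3 stayed higher on flaxseed. The lowest values were with the authors' normalised values for both miR-1937 assays and with no normalisation for miR-720, which was also 0.45 scaled to the control RNAs. The difference of miR-1839-3P lay between -1.83 and -1.28, the larger size being without mouse 11. The differences of miR-712 (-0.44 to 0.09) and miR-1839-5P (-0.23 to 0.16) took both signs.

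**Figure D4:**
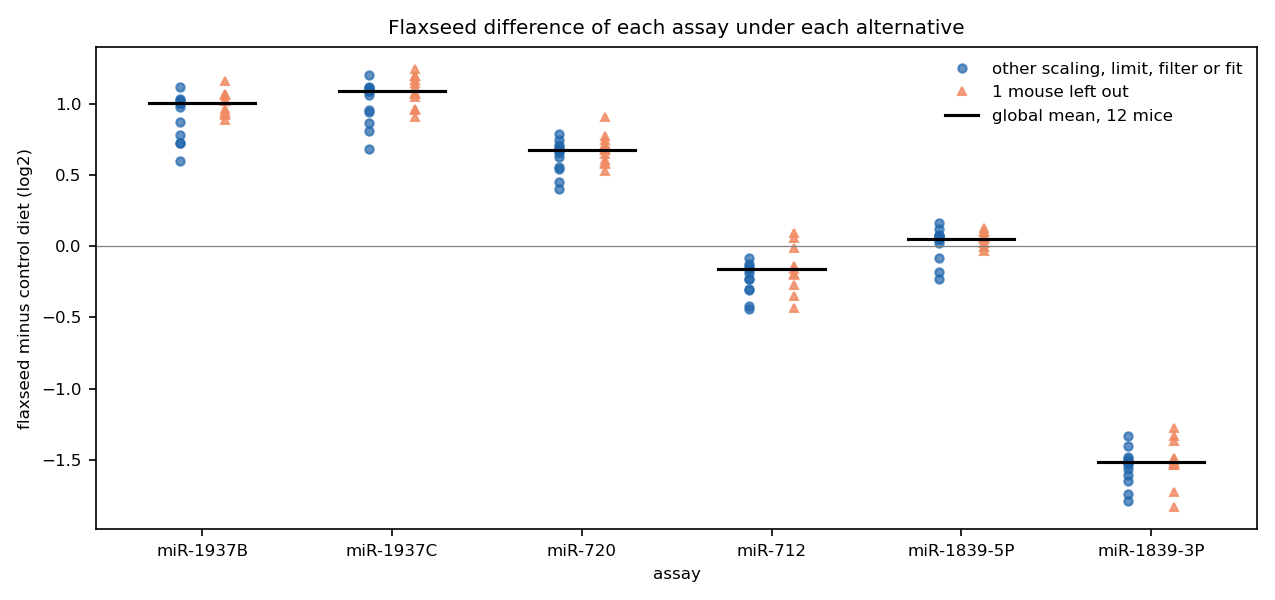
Difference of each assay on flaxseed minus control diet (vertical axis, log2) under other processing choices (circles) and with 1 mouse left out (triangles). The black line is the value with scaling to the mean microRNA and 12 mice. miR-1937B, miR-1937C and miR-720 stay above 0, miR-1839-3P stays below 0, and miR-712 and miR-1839-5P lie around it.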

How the data were processed

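Lung RNA of 12 mice was measured by TaqMan OpenArray quantitative PCR. The input, per the labels, was 100 ng, copied to cDNA with 2 primer pools and pre-amplified for 12 cycles. The authors deposited Crt values, a log2 scale running downward, and a second log2 table with nearly equal distributions in all mice, which had therefore been normalised. How Crt was called and that normalisation are not given in the sources used here. Names were carried to the Crt table by matching ranks within mice: 322 of 326 assays with a Crt matched, and all 6 members also stood at the same place in both tables.

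Crt values of 28 or more were treated as not detected. 296 microRNA assays were fitted on 4 group means with limma 3.58.1 in R 4.3.3 (residual degrees of freedom 8), with Benjamini-Hochberg adjustment. On simulated data for radiation with diets pooled, 92% of assays shifted by 2 and 68% of those shifted by 1 were recovered. Of the assays that were not shifted, 0.859% were called. The number of mice limits the precision. Besides members, the control RNAs and the 3 nearest other assays per member are named. Members and lists were chosen with earlier results of these data known. The fold was predicted with RNAfold 2.7.2.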

Additional observations from a re-analysis of the deposited data

Results flagged for a closer look

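miR-712 was marked because its radiation effect had opposite directions in the diets. The effect on flaxseed minus that on the control diet was 3.72, which equals the flaxseed effect in irradiated minus that in unirradiated mice (3.72). No test is given for this difference, which cannot be told apart from the split by 4th decimals.

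miR-1839-3P was marked for mouse 11, at 1.42 while the other 5 flaxseed mice lay at -0.41 or below. 24 groups of values were checked in this way, and chance marks about 1 in 20. Its radiation effect on flaxseed minus that on the control diet was -0.86, and this difference is also given with no test. Without mouse 11 it was -0.22.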

How the results depend on the processing

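The count of members called on radiation stayed at 0 with the diets pooled and in control mice under all alternatives run. In flaxseed mice it was 1 with quantile normalisation, 1 with scaling within pools, 1 with no normalisation, 1 at a Crt limit of 26, 1 with array weights and 1 with the authors' normalised values, and it ranged from 0 to 1 with a mouse left out. That member was miR-712 (adjusted p from 0.00525 to 0.173 over all its alternatives), except with the authors' values, where it was miR-1937B (-0.81, adjusted p 0.0391). miR-712 was not tested when detection in all 12 mice was required or without mouse 7 or 9.

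These radiation differences, which passed in neither fit, changed sign; the cause was not tested. With quantile normalisation, miR-1937B was 0.0027 and miR-720 0.0175 pooled, and miR-720 0.0786 in control mice. With no normalisation, where the median of all assays moved to 0.45 pooled, miR-1937B was 0.47, miR-720 0.44, miR-1839-3P 0.31 and Y1 0.42 (pool A) and 0.24 (pool B) pooled; in flaxseed mice miR-1937B was 0.56, miR-720 0.76, miR-1839-5P 0.61 and miR-1839-3P 0.21; miR-720 was 0.12 in control mice. At a Crt limit of 30, and with none, miR-712 was -0.0135 and -0.0252 and miR-1839-5P -0.0224 and -0.0349. miR-720 in flaxseed mice was 0.0814 scaled to the control RNAs and 0.0656 within pools. In control mice it was 0.0917 scaled to the median assay, 0.0905 with the authors' values and 0.0487 with array weights, and miR-1839-3P was -0.0613 with the authors' values.

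With a mouse left out, pooled differences ranged from -0.22 to 0.0463 for miR-1937B, -0.25 to 0.13 for miR-720, -0.26 to 0.26 for miR-712, -0.08 to 0.062 for miR-1839-5P, -0.44 to 0.0942 for miR-1839-3P, -0.35 to 0.12 for Y1 in pool A and -0.0725 to 0.28 for U87 in pool B. In flaxseed mice they ranged from -0.0948 to 0.54 for miR-1937C, -0.31 to 0.0167 for miR-720 and -1.01 to -0.02 for miR-1839-3P, which kept its sign. In control mice they ranged from -0.14 to 0.40 for miR-1937B, -0.0605 to 0.51 for miR-1937C, -0.38 to 0.37 for miR-720 and -0.21 to 0.68 for miR-1839-3P.

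No paired analysis was possible because mouse numbers are unique to a group. The control RNA fits and the ratios were added after seeing the data. With 3 mice a group, small differences were not detectable.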
